A study of Mus musculus with 16 samples.

Results

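The 26S proteasome is the protease that degrades ubiquitin-tagged proteins. Described here are the RNA levels of its genes in activated mouse CD8+ T cells after Cas9 targeting of Tardbp, which encodes the RNA-binding protein TDP-43. The members were the protein-coding genes whose GENCODE M21 symbol is Psma, Psmb, Psmc, Psmd, Psme, Psmf or Psmg followed by a number. The interferon-inducible catalytic subunits Psmb8, Psmb9 and Psmb10 were left out of the members and are set beside them. This gave 45 genes of 55536 annotated genes, of which 44 passed the filter on low counts. The exception was Psmb11, the catalytic subunit of the thymic form of the core, with 0 to 5 counts in each library.

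The cells were CD8+ T cells of OT-I mice, whose transgenic T cell receptor recognises SIINFEKL, a peptide of ovalbumin, on a C57BL/6J background (strain label OT-1 Tg C57BL/6J). Per the methods the donors also lacked Rag1 or Rag2. The cells of both groups were electroporated with the Cas9 nuclease, complexed either with a scrambled guide (Control gRNA, 8 libraries) or with a guide against Tardbp (Tardbp gRNA, 8 libraries). They were transferred into C57BL/6J mice, which were stimulated with antigen and with agonist anti-OX40 and anti-41BB. The cells were sorted from spleen and lymph nodes after 4 days according to the labels (the methods state less time). The labels give no age per library, and a Tardbp library is a pool of electroporated cells in which the share of edited cells was not given. By immunoblot of cells pooled from this model, the paper reports that cells given the Tardbp guide did not make the protein.

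In the proteasome, rings of alpha subunits (Psma1 to Psma7) and beta subunits (Psmb1 to Psmb7) form the 20S core, whose catalytic sites lie in Psmb5, Psmb6 and Psmb7. The 19S regulatory particle binds ubiquitin chains and unfolds the substrate with a ring of ATPases (Psmc1 to Psmc6), and its lid holds the deubiquitinase Psmd14. Dedicated chaperones (Psmg1 to Psmg4, Psmd5, Psmd9 and Psmd10) assemble the particles, and the activators encoded by Psme1 to Psme4 can cap the core in place of the 19S particle. In T cells activated by antigen the complex is known for its part in the degradation of cell cycle regulators, in NF-kB signalling and in the supply of peptides for MHC class I.

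Genes of the 19S particle were often lower in Tardbp gRNA, while no gene of the 20S core was called lower in the same fit. Of 17 tested 19S genes, all with a Psm name, 11 fell, 1 rose and 5 were not called, with a median log2 fold change of -0.16. Sem1, a 19S subunit without such a name, rose and is described with the genes outside the members. Of 14 genes of the 20S core, 2 rose and 12 were not called, with a median of 0.04. None was called lower by edgeR or DESeq2, and of those with a negative fold change 1 (Psma2) had an unadjusted p under 0.05. Psma2 was called lower with RLE factors, with the letter M or F as a covariate, and in 10 of the 16 fits that leave out 1 library (Control 2, 4 or 8, or Tardbp 1 or 3 to 8), and 6 core genes were called lower with a correction for transcript length. Among the 44 tested members 15 fell and 8 rose, at an adjusted p under 0.05 in the quasi-likelihood test of edgeR over all 16650 genes tested. For comparison, 23.3% of all tested genes were lower and 23.5% higher, and their median log2 fold change was 0.05. The members' median was -0.05. In 10 members all Tardbp libraries were below all Control libraries and in 2 all were above, while this held for 10.3% and 6.61% of all tested genes. One of the 15 and of the 10, Psma8, passed the filter on low counts through the Control libraries alone. In bulk RNA, fewer cells of a type and less RNA per cell cannot be told apart.

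The targeted gene was read first. Tardbp had 172 to 207 CPM (counts relative to the total of the library, scaled by TMM) in Control gRNA, with a median of 198, and 110 to 147 in Tardbp gRNA, with a median of 136. The groups did not overlap and the log2 fold change was -0.51 ± 0.06 (SE, n = 8 per group; edgeR adjusted p = 8.07e-07). An exact two-sided permutation test of the log2 CPM gave p = 0.000155, the smallest that 8 against 8 allows.

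Several other measures moved with the groups. The 5 CD8 T cell markers (Cd8a, Cd8b1, Cd3e, Cd3d and Cd3g) all rose, with a summed level of 2349 to 2960 CPM in Control and 3486 to 4607 in Tardbp gRNA. All 6 cycling markers (Mki67, Top2a, Cdk1, Ccnb1, Mcm5 and Pcna) fell, from 3602 to 4258 CPM in sum to 2357 to 3033. The red cell markers rose in 4 of 4 tested genes, from sums of 0.442 to 17.4 CPM to sums of 9.02 to 181 CPM. Of 5 tested myeloid markers, 2 rose (sums of 14.3 to 35.7 against 19 to 78.9 CPM), and none of the 4 B cell (sums of 6.85 to 13.1 against 7.28 to 18.4 CPM) or 2 CD4 T cell markers (3.08 to 12.5 against 4.28 to 8.67 CPM) was called by edgeR. Alas2 had a median of 0 CPM in Control gRNA. The RNA concentration before dilution, deposited without a unit, was 34.9 to 197.1 in Control and 10.1 to 24.0 in Tardbp gRNA. The letter M or F deposited for the libraries was F for 5 and M for 3 Control libraries, and F for 3 and M for 5 Tardbp libraries. What part any of these had in the results below was not tested, except where a fit with the concentration or the letter is given. Control library 1 stood apart in many members, and its effect is given beside the calls it changes.

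To show regulatory sequence of the members, promoters were searched for the letters CCGGAAG (the core motif of ETS factors), TGACNNNGC (the antioxidant response element type bound by Nfe2l1 and Nfe2l2) and CCAAT (the box bound by NF-Y), on both strands. The table of RefSeq promoters (GRCm38.p6, 250 bases before to 50 after each start) held 40 promoters of 37 members. CCGGAAG was in 15 of the 40 promoters (37.5%), against 8.86% of all 32851 promoters and 17.8% of the 13102 promoters of tested genes. By gene, it was in 9 of 12 members that fell, 1 of 7 that rose and 4 of 18 others, Psmb11 among them, which was not tested for a change. No promoter of Psma8, Psmd3 and Psmd7, which were called lower, or of Psmb1, which was called higher, was among the 40. These genes were therefore not searched. The same split was not made over all genes, so it is not a result about the members that fell. TGACNNNGC was in 6 promoters (15%, against 12.4% of all and 14.5% of those of tested genes), those of Psmb5, Psmb6, Psmc6, Psmd12, Psmd9 and Psme4. CCAAT was in 13 (32.5%, against 37.4% and 38.0%). A match describes the letters and says nothing on what binds there.

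The stretches that follow end just before the RefSeq start (for Psmb5, just before the GENCODE gene), are written 5′ to 3′ on the strand of the gene, and carry the match in capitals (CTTCCGG is CCGGAAG on the other strand). First are 4 members that were called lower and hold CCGGAAG.
Psmd2 (chr16:20651532-20651651, plus strand): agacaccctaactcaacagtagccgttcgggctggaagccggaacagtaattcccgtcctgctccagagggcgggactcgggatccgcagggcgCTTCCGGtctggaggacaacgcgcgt
Psme3 (chr11:101316086-101316212, plus strand): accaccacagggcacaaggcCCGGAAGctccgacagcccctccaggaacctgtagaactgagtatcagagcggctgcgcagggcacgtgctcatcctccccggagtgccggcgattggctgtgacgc
Psmg1 (chr16:95990961-95991080, minus strand): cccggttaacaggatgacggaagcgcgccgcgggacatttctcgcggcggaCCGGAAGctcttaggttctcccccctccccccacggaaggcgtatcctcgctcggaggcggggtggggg
Psmd11 (chr11:80428495-80428614, plus strand): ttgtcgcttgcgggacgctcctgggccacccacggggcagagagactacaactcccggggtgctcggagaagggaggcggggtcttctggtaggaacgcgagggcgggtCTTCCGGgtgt
Then come 2 catalytic subunits, of which Psmb6 rose and Psmb5 was not called, with TGACNNNGC.
Psmb6 (chr11:70525237-70525356, plus strand): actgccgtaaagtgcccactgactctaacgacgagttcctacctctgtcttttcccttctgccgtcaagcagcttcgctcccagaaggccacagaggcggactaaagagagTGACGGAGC
Psmb5 (chr14:54618023-54618115, minus strand): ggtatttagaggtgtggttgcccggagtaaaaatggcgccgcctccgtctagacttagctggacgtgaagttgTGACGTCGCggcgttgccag
In Psmb6 the match is the last 9 bases before the RefSeq start, and in Psmb5 it begins at base -47 from that start. None of the printed stretches overlaps an annotated exon.

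Per length, the core was more abundant in RNA than the regulatory particle. In TPM (counts per length, scaled to the same total in each library), the 20S genes of Control gRNA ranged from 274 (Psma2) to 924 (Psma7), a 3.37-fold range with a median of 530. The 19S genes ranged from 153 (Psmc6) to 445 (Psmc1), with a median of 317. In Tardbp gRNA the same genes stood at the ends, with 246 and 918 TPM in the core and 126 and 383 in the 19S particle. The chaperones lay lower, from 31.3 ± 1.65 TPM for Psmd9 to 147 ± 7.94 for Psmg2 in Control gRNA (SD, n = 8). Among the activators, Psme2 (624 ± 35.2 TPM) and Psme1 (506 ± 20.6) were at the level of core genes, Psme3 (256 ± 14.1) at that of 19S genes, and Psme4 (5.04 ± 1.0) was the lowest of all but Psma8 and Psmb11.

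**Figure D1:**
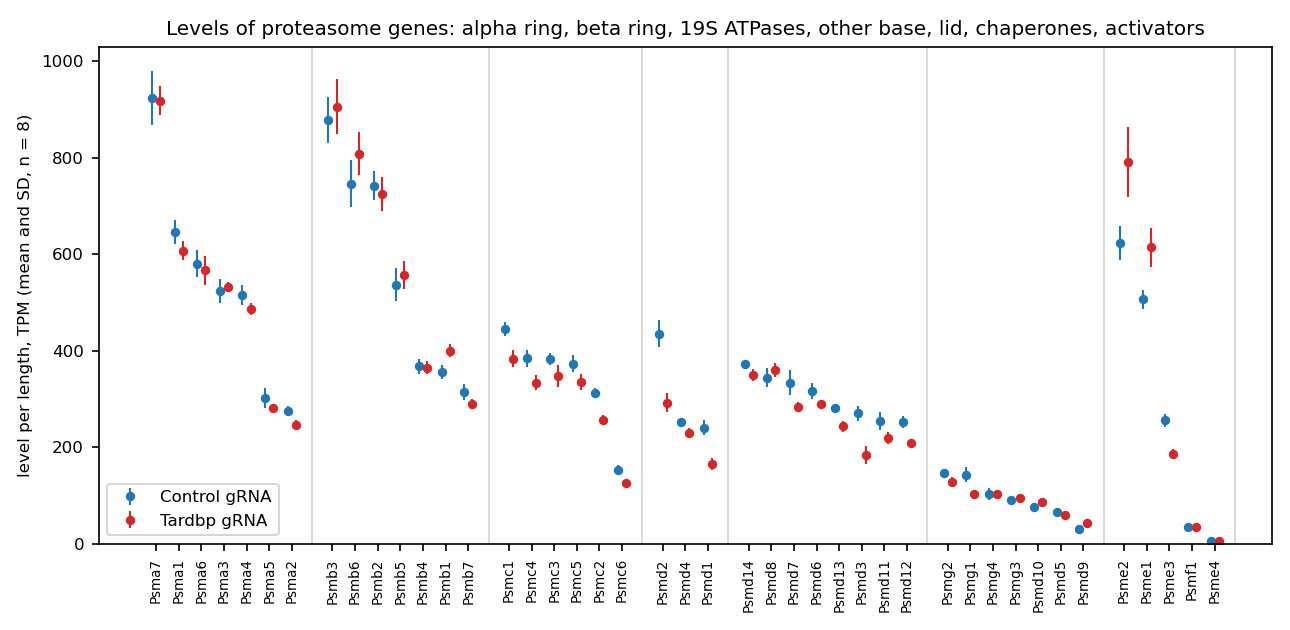
Level per length (TPM, mean and SD of 8 libraries; blue Control gRNA, red Tardbp gRNA) of 43 proteasome genes grouped by role and ordered by their Control level. Core genes reach 924 TPM (Psma7), 19S genes lie between 153 and 445 TPM in Control gRNA, and all chaperones lie under 150; Psma8 and Psmb11 are not drawn.

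The summed level of all 45 genes was 12073 to 14138 CPM in Control gRNA (median 12573) and 11802 to 12699 in Tardbp gRNA (median 12118). The ranges overlapped, the ratio of the means was 0.957, and the difference was smaller than the SD of the Control libraries (639 CPM) and larger than that of the Tardbp libraries (313 CPM). Control library 1 held the highest sum, 1.41% of the TMM-scaled CPM, against 1.21 to 1.31% in the other Control libraries. These SDs are spreads among libraries, and the difference of the means was not tested. The sum of the core genes was 5109 ± 324 CPM in Control and 5270 ± 209 in Tardbp gRNA (SD, n = 8). The sum of the 19S genes was 5932 ± 258 and 5137 ± 113 CPM, at 5621 to 6427 in Control against 4975 to 5267 in Tardbp gRNA, without overlap.

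Among the 19S genes, Psmd2, Psmd1 and Psmd3 had the most negative log2 fold changes. Psmd2, the scaffold of the base that receives ubiquitin shuttles, had 710 to 849 CPM in Control gRNA (median 785) and 502 to 580 in Tardbp gRNA (median 553). Psmd1, the other large scaffold of the base, had 422 to 488 (median 448) against 305 to 352 (median 320). Psmd3, a lid subunit, had 325 to 398 (median 351) against 221 to 283 (median 249). The groups did not overlap for any of these genes. Their log2 fold changes were -0.52 ± 0.04 for Psmd2 (SE, edgeR adjusted p = 4.37e-08), -0.48 ± 0.04 for Psmd1 (adjusted p = 2.00e-07) and -0.50 ± 0.05 for Psmd3 (adjusted p = 5.81e-07). The mean levels of Psmd1 and Psmd3 in Tardbp gRNA were 71.9% and 70.9% of Control. Psmd4, the ubiquitin receptor of the base, was not called, with 214 to 236 CPM against 202 to 226 (adjusted p = 0.0601).

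The rest of the lid fell by less. Psmd12 (log2 fold change -0.22 ± 0.04), Psmd7 (-0.19 ± 0.05), Psmd13 (-0.17 ± 0.03) and Psmd11 (-0.12 ± 0.04), all structural subunits of the lid, were called lower. Of these, Psmd12 (275 to 332 against 234 to 266 CPM) and Psmd7 (287 to 377 against 267 to 287) had groups that did not overlap. Psmd8 was the exception among the 8 lid genes with a Psm name. It had 295 to 361 CPM in Control gRNA (median 302) and 323 to 374 in Tardbp gRNA (median 343), and rose by 0.16 ± 0.04 (adjusted p = 0.00463). The deubiquitinase Psmd14 (-0.03 ± 0.04) and Psmd6 (-0.07 ± 0.04) were not called.

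All 6 ATPases had log2 fold changes below 0, and 4 were called lower. Psmc6 had 182 to 226 CPM in Control and 159 to 185 in Tardbp gRNA (-0.24 ± 0.05). Psmc2 had 320 to 367 against 279 to 304 (-0.22 ± 0.03), with no overlap. Psmc1 (402 to 468 against 364 to 400) also had no overlap, at -0.16 ± 0.03, and Psmc4 changed by -0.15 ± 0.04. Psmc5 (-0.09 ± 0.04; adjusted p = 0.0709) and Psmc3 (-0.08 ± 0.04; adjusted p = 0.0903) missed the threshold.

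**Figure D2:**
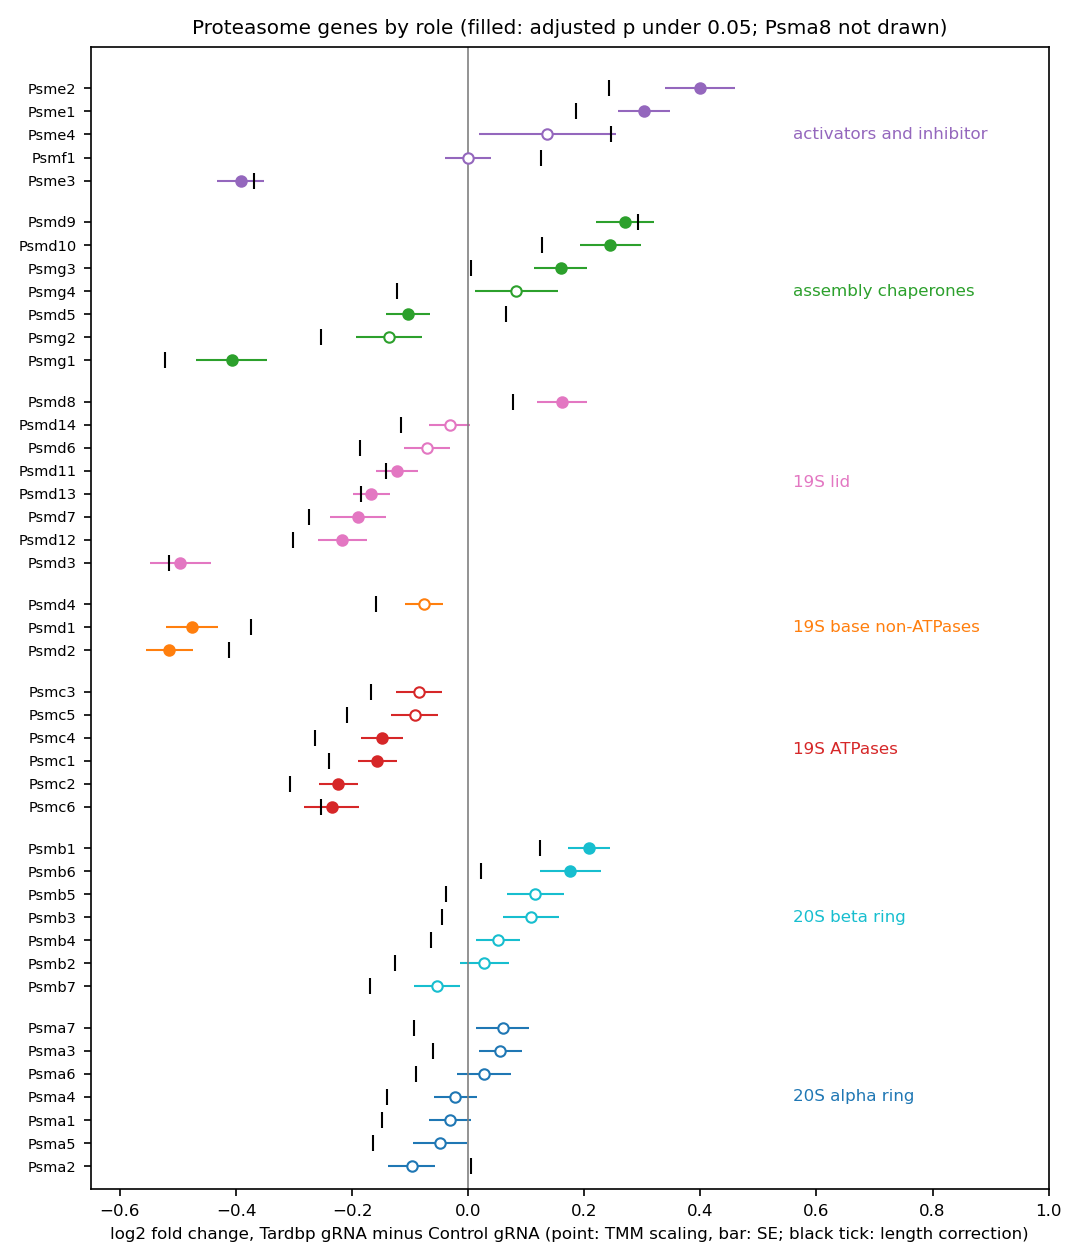
Log2 fold change of 43 tested proteasome genes, Tardbp gRNA minus Control gRNA, with its SE, by role; filled points passed the adjusted p, and black ticks give the value with a correction for transcript length. The 3 lowest points are Psmd2, Psmd3 and Psmd1, at about -0.5, while the alpha ring stays within 0.1 of 0; Psma8 is not drawn.

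None of the 7 alpha subunits of the core was called in edgeR, and Psma2 alone had an unadjusted p under 0.05. Their log2 fold changes ran from -0.10 (Psma2; adjusted p = 0.0532) to 0.06 (Psma7). Psma7, with 487 to 615 CPM in Control and 529 to 607 in Tardbp gRNA, shows the overlap seen in all 7. No alpha gene was called by DESeq2 either, and with RLE factors Psma2 was called lower.

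In the beta ring, 6 of 7 log2 fold changes were above 0 and 2 were called. Psmb1, a noncatalytic subunit, had 379 to 430 CPM in Control gRNA (median 394) and 424 to 502 in Tardbp gRNA (median 459), and rose by 0.21 ± 0.04 (edgeR adjusted p = 0.000126). Psmb6, the subunit with caspase-like activity, had 329 to 432 CPM (median 356) against 376 to 453 (median 402). It rose by 0.18 ± 0.05 (adjusted p = 0.0104), and Control library 1, at 432 CPM, was the one Control library inside the Tardbp range. Without Tardbp library 4, which held its highest value, the call was lost (0.13, adjusted p = 0.0552). Psmb5, the subunit with chymotrypsin-like activity, had 273 to 345 CPM (median 285) against 292 to 342 (median 318). Its change of 0.12 ± 0.05 was not called (adjusted p = 0.0622), while without Control library 1, which held its highest value, it was called at 0.14. Without that library Psmb3 and the activator gene Psme4 were called higher as well, for 11 members higher and 15 lower. Psmb7, the subunit with trypsin-like activity, had 209 to 250 CPM (median 218) against 203 to 224 (median 216) and did not pass the test (-0.05 ± 0.04, adjusted p = 0.282).

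**Figure D3:**
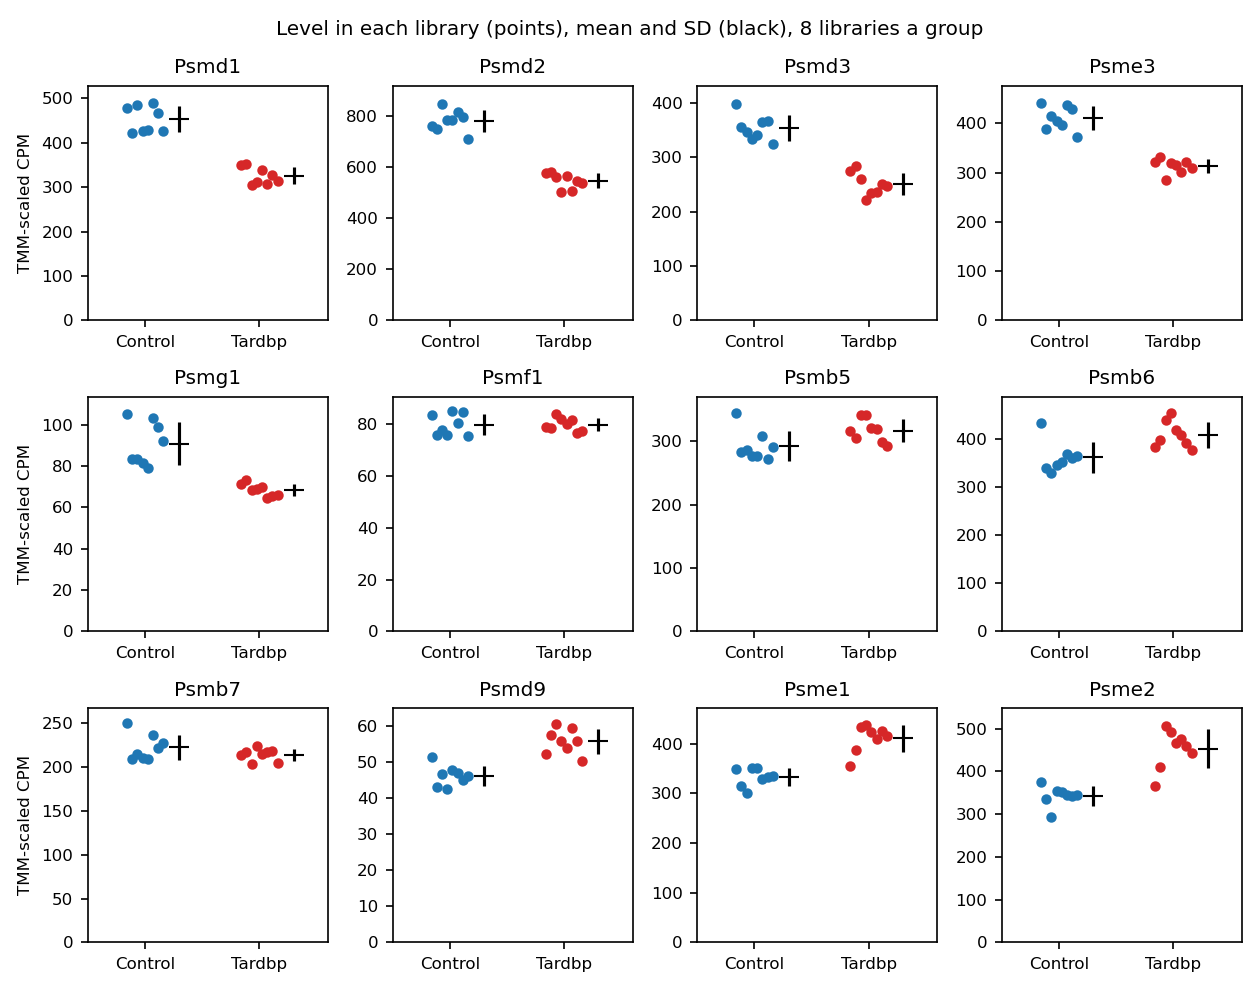
TMM-scaled CPM in each of the 16 libraries (points; axes start at 0) with mean and SD for 12 proteasome genes. Psmd1, Psmd2, Psmd3, Psme3 and Psmg1 do not overlap between groups and are lower in Tardbp gRNA; of the catalytic subunits, Psmb6 overlaps through 1 high Control library.

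The tissue forms of the core were near the floor. Psma8, the alpha subunit of the testis form, had 29 to 80 counts in each Control library (460 in all) and 0 to 32 in each Tardbp library (92 in all). In CPM this was 0.367 to 0.981 against 0.00 to 0.330. It passed the filter on low counts through the group in which it was higher, so its call is not a test of the difference. Per length it stood at 0.861 TPM in Control gRNA, against 924 TPM for its paralog Psma7.

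The activators moved in opposite directions. Psme1 and Psme2 encode the interferon-inducible activator PA28 alpha-beta, and both rose. Psme1 had 301 to 351 CPM in Control gRNA (median 334) and 355 to 438 in Tardbp gRNA (median 419), with no overlap and a log2 fold change of 0.30 ± 0.04 (adjusted p = 2.24e-05). Psme2 had 294 to 375 CPM (median 345) against 366 to 507 (median 463), and rose by 0.40 ± 0.06 (adjusted p = 2.72e-05). The lowest values of the Tardbp group for both genes were those of Tardbp library 1. Psme3 encodes PA28 gamma, the nuclear activator. It had 373 to 441 CPM (median 410) against 286 to 331 (median 317), with no overlap, and fell (log2 fold change -0.39 ± 0.04; adjusted p = 4.57e-07). Psme4, the activator PA200, had 14.3 to 28.7 CPM against 16.6 to 25.1, and its change of 0.14 ± 0.12 was not called. Control library 1 held its highest value, and without that library it was called higher (0.24, adjusted p = 0.0335). Psmf1, the proteasome inhibitor, had 75.6 to 85.0 CPM against 76.7 to 83.8 and a log2 fold change of 0.00 ± 0.04 (adjusted p = 0.999).

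Psme2b, a single-exon copy of Psme2 on chromosome 11, was given 8223 to 15814 counts per library, so the counting could have split reads between the copies. Its share of the counts of both was 23.9 to 26.4% in Control and 24.7 to 25.7% in Tardbp gRNA. The sum of the copies was 461 ± 29.4 CPM in Control and 605 ± 61 in Tardbp gRNA (SD, n = 8). Psmb6-ps2 and Psmb7-ps2, pseudogenes of core subunits, had at most 41 and 35 counts in a library. The kit was counted without a stated strand, and exons of Slc39a13, Sirt3, Nek6, AY074887 and Emc9 on the opposite strand cover 8.25%, 10.1%, 11.8%, 4.81% and 0.634% of the exon bases of Psmc3, Psmd13, Psmb7, Psma4 and Psme1.

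Of the 7 assembly chaperones, 3 rose, 2 fell and 2 were not called, while 23.5% of all tested genes rose and 23.3% fell. Psmg1, which with Psmg2 guides the alpha ring, had 79.0 to 105 CPM in Control gRNA (median 87.8) and 64.5 to 73.2 in Tardbp gRNA (median 68.6). Its groups did not overlap and its log2 fold change was -0.41 ± 0.06 (adjusted p = 2.94e-05). Its partner Psmg2 had 88.7 to 109 CPM against 77.9 to 98.8 and missed the threshold (-0.14 ± 0.06, adjusted p = 0.0539), and DESeq2 called it lower. Psmg3 and Psmg4 form the other pair of alpha ring chaperones. Psmg3 had 45.0 to 53.1 against 49.6 to 57.2 CPM and rose by 0.16 ± 0.05 (adjusted p = 0.00788), while Psmg4 (27.6 to 40.1 against 30.5 to 37.5) was not called.

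The base chaperones Psmd9, Psmd10 and Psmd5 bind the ATPases during assembly. Psmd9 had 42.5 to 51.4 CPM in Control gRNA (median 46.3) and 50.3 to 60.3 in Tardbp gRNA (median 55.8), and rose by 0.27 ± 0.05 (adjusted p = 0.00023). Psmd10, also known as gankyrin, had 58.7 to 71.3 (median 65.4) against 71.4 to 84.4 (median 78.3), with a log2 fold change of 0.25 ± 0.05 (adjusted p = 0.000749) and no overlap. Psmd5 had 148 to 173 CPM against 145 to 164 and was called lower at -0.10 ± 0.04 (adjusted p = 0.0339). That call was lost in several fits, 5 of the 16 that leave out 1 library among them.

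Transcript length moved with these results. Across all 16650 tested genes, the median log2 fold change went from 0.21 in the shortest of 10 classes of transcript length to -0.12 and -0.09 in the longest classes. Across genes, which are not independent replicates, Spearman's rho between length and log2 fold change was -0.25 over all tested genes. It was -0.48 over the 44 tested members and -0.76 over the 31 of them in the core and the 19S particle. The core genes had a median transcript length of 1167 bases and the 19S genes one of 1619. Psmd1 (3110 bases), Psmd2 (2961) and Psmd3 (2156) were among the longest.

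A fit with an offset for each library within each length class, added after the data were seen, was therefore set beside the main fit. It called 26 members lower and 6 higher, against 23.2% and 22.7% of all tested genes. In the 19S particle 16 of 17 genes were then lower and none higher, with a median log2 fold change of -0.24. In the core 6 of 14 were lower and 1, Psmb1, was higher, with a median of -0.08. The alpha ring changed most in its calls, with 4 of 7 lower (Psma1, Psma4, Psma5 and Psma7). Psmd2 (-0.41), Psmd1 (-0.37), Psmd3 (-0.51), Psme3 (-0.37) and Psmg1 (-0.52) kept their calls, as did Psme1 (0.19), Psme2 (0.24), Psmd9 (0.29) and Psmd10 (0.13). Psmb6 (0.02), Psmd8 (0.08) and Psmg3 (0.00) were no longer called higher, Psmd5 turned to 0.06, and Psmf1 was called higher (0.12, adjusted p = 0.0306).

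**Figure D4:**
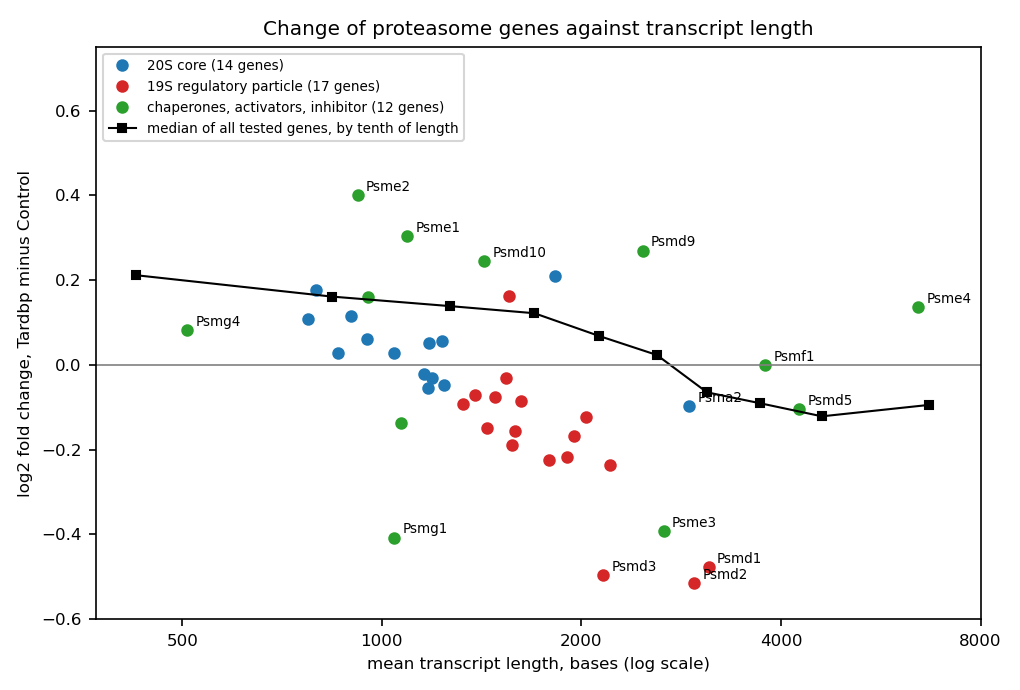
Log2 fold change (Tardbp gRNA minus Control gRNA) of 43 proteasome genes against their mean transcript length (log scale), with the median of all tested genes in each of 10 length classes in black. The 19S genes (red) lie below the black line except Psmd8, and Psme1, Psme2, Psmd9 and Psmd10 lie above it.

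The balance between the particles was also read within each library, per length. The mean TPM of the 19S genes divided by that of the core genes was 0.577 ± 0.0159 in Control and 0.493 ± 0.0168 in Tardbp gRNA (SD, n = 8). The highest Tardbp library (0.511) lay below the lowest Control library (0.548). With the length offsets the ratio was 0.563 ± 0.00969 against 0.505 ± 0.0159, at 0.551 to 0.582 and 0.478 to 0.521, again without overlap. The mean of Psme1 and Psme2 divided by Psme3 was 2.22 ± 0.174 in Control and 3.78 ± 0.413 in Tardbp gRNA, at 1.93 to 2.45 against 3.02 to 4.42. These ratios are built from genes described above and are given as a description.

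**Figure D5:**
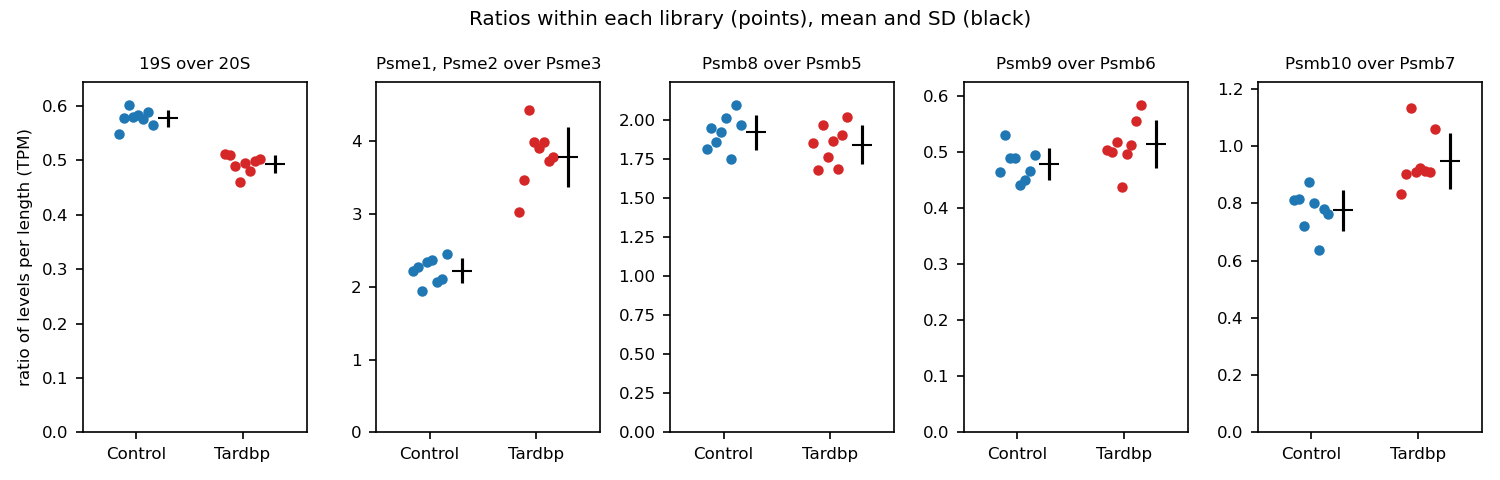
Ratios of levels per length within each of the 16 libraries (points; axes start at 0), with mean and SD. The ratio of 19S to 20S genes falls from 0.577 to 0.493 and that of Psme1 and Psme2 to Psme3 rises from 2.22 to 3.78, both without overlap; the ratios of Psmb8, Psmb9 and Psmb10 to Psmb5, Psmb6 and Psmb7 overlap.

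The interferon-inducible subunits replace the catalytic subunits of the core in the immunoproteasome, and they were abundant in both groups. Psmb8, which replaces Psmb5, had 851 to 1003 CPM in Control and 878 to 1072 in Tardbp gRNA and was not called (0.05 ± 0.04, adjusted p = 0.306). Psmb9, which replaces Psmb6, had 276 to 321 against 325 to 375 CPM, without overlap, and rose by 0.25 ± 0.04 (adjusted p = 6.07e-05). Psmb10, which replaces Psmb7, had 160 to 201 against 186 to 245 CPM and rose by 0.24 ± 0.06 (adjusted p = 0.00196), a call lost with the length correction (0.12, adjusted p = 0.0536). Per length, Psmb8 was 1.92 ± 0.112 times as abundant as Psmb5 in Control and 1.84 ± 0.123 times in Tardbp gRNA. Psmb9 to Psmb6 gave 0.478 ± 0.0286 against 0.514 ± 0.0429, and Psmb10 to Psmb7 gave 0.776 ± 0.0719 against 0.948 ± 0.0974. All these ratios overlapped between groups.

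Genes that act with the proteasome were read from lists chosen with earlier results known. Of 35 such genes tested, 15 were lower and 8 higher, with a median log2 fold change of -0.16. Over all tested genes, 23.3% were lower and 23.5% higher, with a median of 0.05. Sem1, the smallest 19S subunit, which carries no Psm name, had 159 to 188 CPM in Control and 234 to 292 in Tardbp gRNA, without overlap, and rose by 0.63 ± 0.05 (adjusted p = 9.8e-08). Of the 19S genes with a Psm name, Psmd8 was the one that also rose. Pomp, which matures the core, rose by 0.31 ± 0.04, at 278 to 317 against 332 to 392 CPM. Adrm1, a ubiquitin receptor, was not called (-0.05 ± 0.04), while Uchl5 (-0.35 ± 0.06) and Usp14 (-0.41 ± 0.04), deubiquitinases bound to the 19S particle, and Ecpas (-0.83 ± 0.08), which holds it to the core, were lower.

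Of 8 shuttle factors, which bring ubiquitinated proteins to the particle, 5 fell and 1 rose, against 23.3% and 23.5% of all tested genes. Rad23b (-0.77 ± 0.09) and Ubqln4 (-0.63 ± 0.07) had the widest decreases. Zfand5 rose by 0.57 ± 0.21 with overlap, at 14.2 to 35.2 CPM in Control and 20.7 to 47.0 in Tardbp gRNA. Nfe2l1, the factor known to raise proteasome genes when the protease is inhibited, had 44.8 to 57.8 CPM in Control and 24.6 to 41.8 in Tardbp gRNA. Its groups did not overlap (log2 fold change -0.57 ± 0.08; adjusted p = 1.66e-05). Ddi2, the protease that cleaves it, was lower at -0.42 ± 0.10 with overlap. Of the 10 genes of that pathway, Vcp (-0.41 ± 0.03) and Keap1 (-0.32 ± 0.04) were also lower, Ngly1, the glycanase that acts on Nfe2l1, was higher (0.33 ± 0.05), and 5 were not called, Nfe2l2 among them. The ubiquitin-activating enzymes Uba1 (-0.66 ± 0.06) and Uba6 (-0.55 ± 0.10) fell, the ubiquitin gene Ubb rose (0.16 ± 0.04) and Rps27a was not called.

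At the transcript level, 164 transcripts of 43 members were tested, and 14 were lower and 10 higher. This compares with 8.14% lower and 8.50% higher of 40897 transcripts in all. All 14 lower transcripts were protein-coding, and each was that of a 19S gene, of Psme3 or of Psmg1. Over all genes, 2847 of 3330 lower transcripts and 1561 of 3475 higher ones were protein-coding. Of the 10 higher ones 3 were protein-coding (Psmd10-201, Psme2-208 and Psmc3-201), 6 were annotated as retained introns and 1 as a processed transcript. Among the retained introns were Psmd7-202 (3.04 ± 0.580 against 5.81 ± 1.5 CPM, log2 fold change 0.93) and Psme2-210 (47.2 ± 6.15 against 64.0 ± 7.12 CPM, log2 fold change 0.44). Called higher were 6 of 66 retained-intron transcripts of members (9.09%), close to the 10.5% of all 8880 such transcripts tested. Psmc3-201 was estimated at 0.00 to 1.97 CPM in Control and 0.0911 to 27.7 in Tardbp gRNA, and overlapped.

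Shares of transcripts within their gene were tested in 38 members. None passed an adjusted p under 0.05 in limma with a difference over 0.1, against 1.77% of 8325 genes. With so low a share over all genes, none among 38 is not a result about the members. Without the limit on size, 5 of 159 transcripts passed the adjusted p and 20 had an unadjusted p under 0.05. The pair of Psmd7 showed the clearest, with Psmd7-202 going from a share of 0.00953 to 0.0211 (adjusted p = 0.00761). The widest difference, -0.111 for Psmd8-202, did not pass (adjusted p = 0.267).

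Whippet's Psi, the fraction of a gene's transcripts that include a node, was deposited as one value for each group of 8 libraries, so it carries no replicate error. The columns are headed A and B without naming the groups, so no direction is given. Of 436 nodes in 44 members, none differed by over 0.1, against 4.70% of all 125520 nodes. The 360 core exons of members differed by at most 0.0457 (918 of 98533 core exons, 0.932%, passed 0.1 in all). Of all member nodes, 3 differed by over 0.05, against 9.65% of all nodes. They were a pair of tandem start sites of Psmg1 and a retained intron of Psmd11. The Psmg1 nodes are at chr16:95990891-95990960 (mm10, minus strand), where Psi was 0.0631 in A and 0.145 in B, and at chr16:95990754-95990890, where it was 0.937 and 0.855. The first of these begins at the base after the printed promoter stretch. The Psmd11 intron, at chr11:80471595-80471709 on the plus strand, had a Psi of 0.210 in A and 0.134 in B.

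The calls depended on the fit as follows. With the RNA concentration as a covariate, which did not overlap between the groups, 6 members were lower (Psmd1, Psmd2, Psmd3, Psmd13, Psme3 and Psma8) and 5 higher (Psmb1, Psmb6, Psmd8, Psme1 and Psme2), while 1687 of all 16650 genes were lower and 1010 higher. With upper quartile scaling, which raised the median log2 fold change of all genes from 0.05 to 0.12, the split of members turned to 13 higher and 10 lower (all genes 4865 and 3086), and the 19S particle to 1 higher and 7 lower. An interaction of the group with the letter passed an adjusted p under 0.05 in edgeR for 0 of the tested genes, and 662 of all genes, 1 of them a member, had an unadjusted p under 0.05. Libraries numbered 1 to 3 alone gave 5 members lower (Psmd1, Psmd2, Psmd3, Psme3 and Psma8) and 0 higher, against 1140 lower and 556 higher of 16871 genes. Psma8 is counted in these fits, but it was near the floor and its call is not a test of the difference.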

How the data were processed

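RNA of 16 libraries (8 Control gRNA, 8 Tardbp gRNA) had been made with SMART-Seq v4 and Nextera XT. The authors aligned reads to mm10 with HISAT2 2.1.0 and gave deposited estimated counts per gene and transcript from StringTie 2.1.0, without normalization. These were whole numbers as deposited, so no rounding was needed. The deposited Psi values are a fraction per node and group of pooled libraries from Whippet, in columns A and B that do not name the groups. The authors' difference of Psi and its probability were not used. Deposited counts of read pairs per library were 29714709 to 48164083, and estimated counts in annotated genes 56016533 to 94801105. The gene table had 10 further columns without a sample in the labels used here, which stayed unused.

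The gene test was the quasi-likelihood test of edgeR 4.0.16 under R 4.3.3 (TMM, filterByExpr by group with a minimum count of 10, total of 15 and proportion of 0.7), two-sided, with a threshold of 0.05 on the Benjamini-Hochberg adjusted p. Transcripts were tested likewise, and transcript shares with limma 3.58.1. DESeq2 1.42.0 was an alternative. TPM was computed from the transcript counts and annotated transcript lengths, and the length of a gene is the mean over its transcripts weighted by counts. Motifs and permutation tests used Python 3.11.15 with SciPy 1.17.1. Tests were checked on simulated data. A length correction (an offset per library within each of 10 classes of transcript length) was added after the data were seen. Genes and coordinates are those of GENCODE M21 (GRCm38).

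Members and lists were chosen with earlier results of these data known. Named with full values were the catalytic subunits, activators, inhibitor and chaperones, the called members at either end of the fold changes (5 each, with a mean log2 CPM from 3 upwards), and neighbours of the pathway. Psma8 and the other list genes given values were named after their values were seen. Paaf1 was not matched by symbol. The study describes the sorted cells as coming from individual recipient mice, while the labels do not tie libraries to animals or to donors of the transferred cells.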

Additional observations from a re-analysis of the deposited data

Results flagged for a closer look

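In 17 of 106 groups of 8 libraries, 1 library stood far from the rest of its group (Dixon's test at the 95% level), where chance gives about 5.3.

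Control library 1 was the high one in 11 of these. Its TMM-scaled CPM was 423 for Psmc3 (others 357 to 371), 615 for Psma7 (others 487 to 546), 295 for Psmb4 (others 247 to 270), 440 for Psmb2 (others 371 to 395), 488 for Psmb3 (others 388 to 408) and 421 for Psma6 (others 343 to 377). It was 432 for Psmb6 (others 329 to 369), 361 for Psmd8 (others 295 to 313), 28.7 for Psme4 (others 14.3 to 20), 40.1 for Psmg4 (others 27.6 to 33.0) and 1003 for Psmb8 (others 851 to 913). This library also had the highest RNA concentration, 197.1, and the part of that in its levels was not tested.

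Tardbp library 3 held 504 CPM for Psmb3 (others 423 to 455) and 1072 for Psmb8 (others 878 to 936), and was low for Tardbp at 110 (others 130 to 147) and for Nfe2l1 at 24.6 (others 34.6 to 41.8). Tardbp library 4 held 607 CPM for Psma7 (others 529 to 564) and 380 for Psma3 (others 342 to 358).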

How the results depend on the processing

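Of 44 tested members, 8 were called higher and 15 lower. Psma8, whose call is not a test of the difference, is counted among the lower ones here and below. Upper quartile scaling gave 13 higher, the RNA concentration as a covariate 5 higher and 6 lower, libraries numbered 1 to 3 alone 0 higher and 5 lower, and the length correction, chosen after seeing the data, 26 lower. Leaving out 1 library at a time gave 7 to 11 higher and 14 to 21 lower. Of the transcripts, 10 were called higher, against 4 with libraries numbered 4 to 8 alone and 4 at an adjusted p under 0.01. The causes were not tested.

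Among the genes named with full values, log2 fold changes turned in sign in several fits. They did so for Psmb5 (-0.039), Psmd5 (0.064), Psmg4 (-0.12) and Psmb8 (-0.064) with the length correction. The same held for Psmb7 (0.017) and Adrm1 (0.019) with upper quartile scaling, and for Psmg4 (-0.029) with numbers 1 to 3 alone. Other members turned as well, among them Psma7 and Psmb2. Both were above 0 in the main fit and were called lower with the length correction. Psmf1, near 0, gave -0.0019 with DESeq2, -0.0020 with RLE factors, -0.018 with numbers 4 to 8 alone, -0.0063 with numbers 1 to 3 alone, -0.013 with the letter as a covariate, and -0.039 to 0.013 when 1 library was left out.

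The replicate block gave 8 members higher and 15 lower, the same genes as without it. Same-numbered libraries correlated in their deviations at -0.0048 to 0.16, with 2 of 8 numbers matched best by their own number, so the numbers were not taken to pair the libraries.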
